A study of Mus musculus with 12 samples.

Results

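Iron storage, export and sensing in heart and skeletal muscle were followed through 10 genes: Fth1 and Ftl1 (ferritin), Pcbp1 (iron chaperone), Ncoa4 (ferritin turnover), Slc40a1, Heph and Cp (export) and Aco1, Ireb2 and Fbxl5 (sensing). They were taken by name, as every probe that the platform annotation pairs with one of these symbols, which gave 22 of the 46133 probes on the array and 10 of 17658 gene symbols. The iron-fed mice were C57BL/6 males, 18 weeks old, that had eaten a diet with 2% carbonyl iron for 6 weeks. Their controls were males of the same strain and age on chow with 0.02% iron. Total RNA from the heart and the skeletal muscle (extensor digitorum longus) of 3 mice per diet was hybridized to Illumina Sentrix Mouse-6 BeadChips, which gave 12 arrays and 4 groups: heart on the high-iron diet, heart on the control diet, skeletal muscle on the high-iron diet and skeletal muscle on the control diet. No genetic change was involved, and RNA came from whole tissue, so the values are averages over all its cell types.

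Iron that a cell does not use is kept inside ferritin, a shell of heavy (Fth1) and light (Ftl1) chains, to which the chaperone PCBP1 delivers iron and from which NCOA4 releases it by carrying ferritin to the lysosome. Ferroportin (Slc40a1) is the only known iron exporter of mammalian cells, and the ferroxidases hephaestin (Heph) and ceruloplasmin (Cp) oxidize the iron it releases. The iron regulatory proteins, IRP1 (Aco1, which is a cytosolic aconitase when iron is plentiful) and IRP2 (Ireb2), bind iron-responsive elements in mRNAs when iron is scarce. They block translation of the ferritin and ferroportin mRNAs and stabilize that of the transferrin receptor, and FBXL5 is the iron-sensing part of a ubiquitin ligase that degrades IRP2. Much of this control acts on translation or protein stability, which an array of mRNA signals does not measure.

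The ferritin genes differed between the tissues in the same direction, so their upstream sequence is shown. RefSeq windows (GRCm38.p6) of 250 bases before an annotated start were matched for 7 of the 10 genes, in 11 windows, and none for Slc40a1, Heph or Fbxl5. Capitals mark CCAAT, searched on both strands and found here as ATTGG, in the second of the windows listed for Fth1 (chr19:9982396-9982645, plus strand) and in the window of Ftl1 (chr7:45459887-45460136, minus strand).
Fth1: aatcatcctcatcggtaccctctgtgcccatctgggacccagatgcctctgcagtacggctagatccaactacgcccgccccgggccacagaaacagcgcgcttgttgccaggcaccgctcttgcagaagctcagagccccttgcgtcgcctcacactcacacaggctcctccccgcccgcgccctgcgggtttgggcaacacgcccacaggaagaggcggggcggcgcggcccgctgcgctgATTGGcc
Ftl1: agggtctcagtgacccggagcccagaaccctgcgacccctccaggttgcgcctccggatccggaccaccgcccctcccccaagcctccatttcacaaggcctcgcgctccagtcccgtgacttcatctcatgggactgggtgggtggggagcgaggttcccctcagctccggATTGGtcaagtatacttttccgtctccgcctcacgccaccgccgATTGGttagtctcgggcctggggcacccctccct
The Fth1 window holds 1 copy and the Ftl1 window holds 2. Of all 32851 windows of this length, 33.8% hold at least 1, as did 3 of the 11 windows of these genes. Neither ferritin window printed here holds TATAA (either strand, in 22.8% of all windows) or TGANNNNGC, the core of the antioxidant response element (either strand, in 35.2%). The first window listed for Fth1 (chr19:9980350-9980599), not printed, holds 1 TATAA at -123 and no CCAAT or TGANNNNGC. A match of letters is a description and not a binding site.

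Before the results, some features of the arrays need stating. Signals given here are quantile normalized over the 12 arrays and have no unit, and the median probe was at 257. Of the 22 probes, 8 of 7 genes averaged above the 75th percentile of all probes (a signal of 300.2), namely those of Fth1, Ftl1, Pcbp1 and Ireb2 and 1 or more of Slc40a1, Cp and Fbxl5. The 5 probes of Heph and the 3 of Ncoa4 were all near or below the median, and a difference between samples is harder to see there. Markers matched the labelled tissues: 5 of 5 cardiomyocyte genes were higher and 8 of 8 skeletal myofibre genes lower in heart than in skeletal muscle. The study's methods name hybridization problems on 1 control and 1 high-iron heart array without saying which, and heart high-iron replicate 1 and heart control replicate 2 stood apart here, with median correlations of 0.930 and 0.936 with the other heart arrays, against 0.985 to 0.986 for the rest. Heart high-iron replicate 1 also had a summed signal of 57413 for 5 atrial genes (1607 to 5060 on the other heart arrays) and of 7183 for 5 seminal vesicle genes (1176 to 1300 on the others), and heart control replicate 2 one of 4726 for 7 adipocyte genes (1698 to 1889). The part of these signals in the results was not tested, and the diet differences of Fth1, Ftl1, Pcbp1, Slc40a1 and Tfrc in heart are given with and without both arrays.

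The clearest pattern was between the tissues and not between the diets. At an adjusted p under 0.05 (limma, over all probes, mouse as a random block), 5 genes were higher in heart than in skeletal muscle over both diets, namely Fth1, Ftl1, Cp, Aco1 and Pcbp1, and 1, Slc40a1, was lower. Heph, Ireb2, Ncoa4 and Fbxl5 did not pass. By probe this was 6 of 22 higher and 1 of 22 lower, while 7.61% of all probes were called higher and 5.76% lower (13.4% in either direction). The median log2 difference was 0.041 over the 22 probes and -0.00035 over all probes. The called members were mostly bright, and among all probes above the 75th percentile 45.8% were called, so the count is read against that share too: of the 8 member probes above it, 6 were called. A ratio of means of at least 1.4 in either direction was reached by 4 of 22 probes (5.25% of all), those of Fth1, Ftl1, Slc40a1 (probe 2370286) and Cp (probe 101580398). In bulk tissue, fewer cells of a type and less RNA per cell cannot be told apart.

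**Figure D1:**
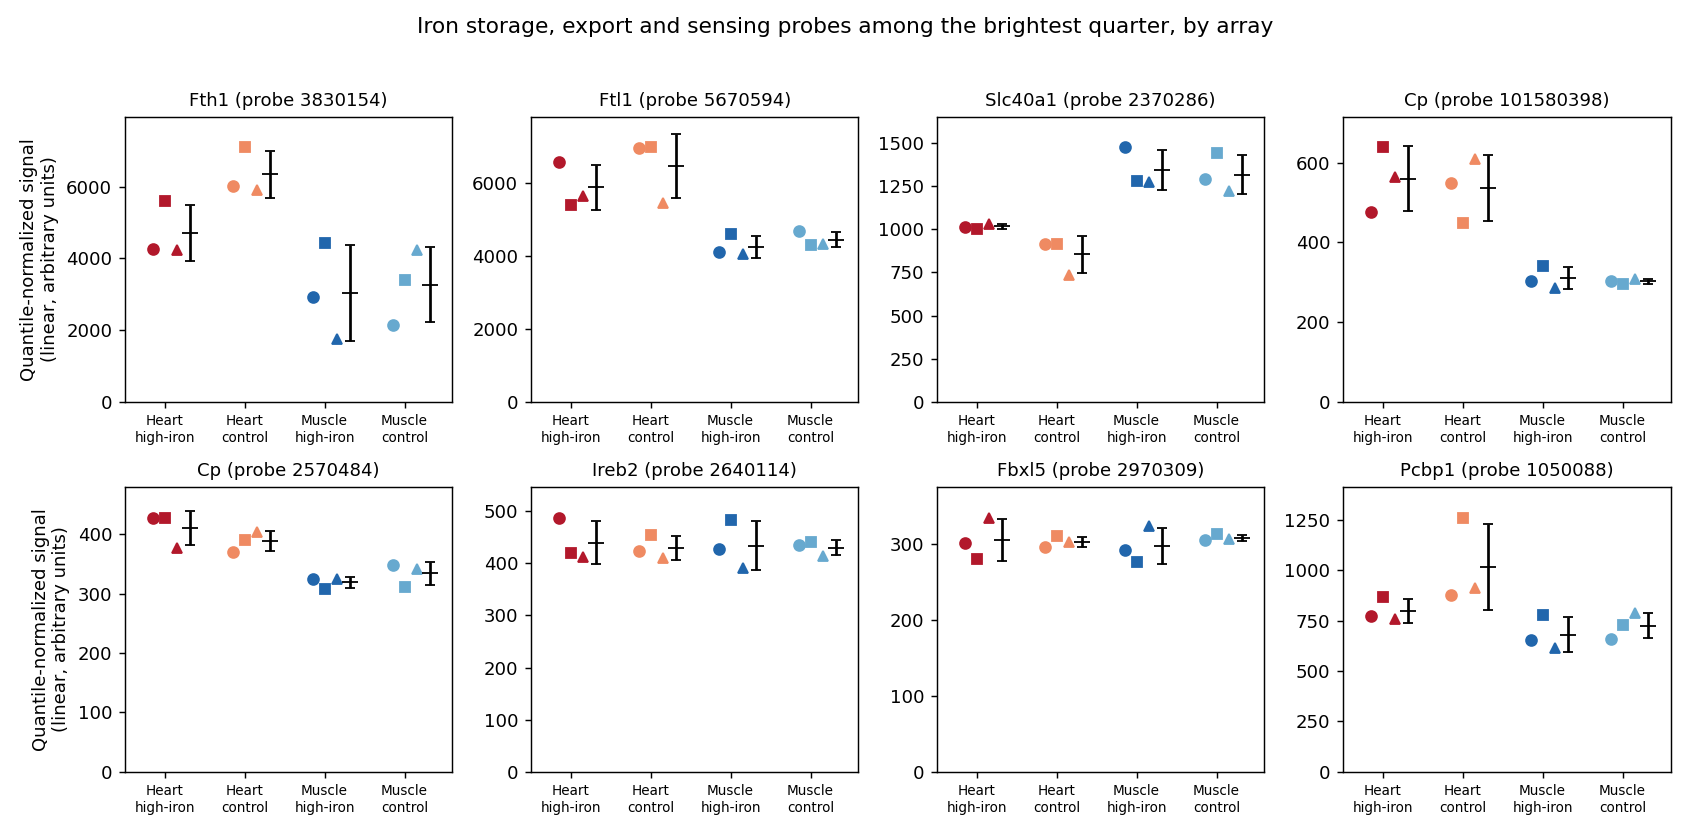
Quantile-normalized signal (linear scale from 0, arbitrary units) of the 8 probes above the 75th percentile on each of the 12 arrays. Circles, squares and triangles are replicates 1, 2 and 3, and black bars show the mean and SD of the 3 arrays. The heart arrays lie above the skeletal muscle arrays for Ftl1 and both Cp probes and below them for Slc40a1, while Fth1 spreads from 1761 to 4436 within skeletal muscle on the high-iron diet.

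Among the storage genes, Ftl1, the light chain that promotes iron core formation, was at 6576, 5402 and 5636 in iron-fed hearts and at 6944, 6966 and 5434 in control hearts. Iron-fed muscles were at 4094, 4592 and 4052, against 4681, 4300.4 and 4330.5 in control muscles. Every heart array was above every skeletal muscle array. The log2 difference between heart and skeletal muscle was 0.50 (SE 0.0682, adjusted p = 3.38e-05, limma), a ratio of means of 1.42. In each diet alone it was 0.46 on the high-iron diet and 0.53 on the control diet, both past the threshold. Lack of overlap between all heart and all skeletal muscle arrays was found for 3 member probes in the higher direction (5.38% of all probes) and for 1 in the lower (4.2%).

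Fth1, the heavy chain with the ferroxidase site, was at 4271, 5609.6 and 4235 in iron-fed hearts and at 6032, 7095 and 5899 in control hearts. The values in muscle were 2925, 4436 and 1761 in iron-fed and 2149.5, 3403 and 4235 in control mice. The highest skeletal muscle arrays reached into the range of the iron-fed hearts, and the hearts on the control diet were above all others. Over both diets the log2 difference between heart and skeletal muscle was 0.86 (SE 0.175, adjusted p = 0.00177, limma). It was 0.72 on the high-iron diet (adjusted p = 0.0906) and 1.01 on the control diet (adjusted p = 0.00139), so the arrays of the high-iron diet alone did not pass.

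Pcbp1, whose protein carries iron to ferritin and also binds poly(C) RNA, was at 774, 868 and 758 in iron-fed hearts and at 879, 1263 and 913 in control hearts. Muscles of iron-fed mice had 654, 778 and 613, and those of control mice had 661, 731 and 786. Only the lowest hearts overlapped with the highest muscles. The log2 difference between the tissues was 0.35 (SE 0.0830, adjusted p = 0.00605, limma), and it no longer passed when arrays were scaled to a common median (0.28, adjusted p = 0.141) or on the high-iron diet alone (0.24, adjusted p = 0.189). Ncoa4, the receptor for ferritin turnover, had 3 probes with log2 differences of 0.10, 0.063 and 0.025. None passed, and the widest 95% interval, of the brightest probe, ran from -0.018 to 0.22.

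The export genes Slc40a1 and Cp went in opposite directions between the tissues. Slc40a1 (probe 2370286), which encodes ferroportin, was at 1016, 1004 and 1032 in iron-fed hearts and at 914, 918 and 733 in control hearts. Iron-fed muscles were at 1475, 1280.3 and 1274, against 1291, 1442 and 1220.1 in control muscles. All skeletal muscle arrays were above all heart arrays, and within heart the iron-fed mice were all above the controls. The log2 difference between heart and skeletal muscle was -0.51 (SE 0.0629, adjusted p = 9.73e-06, limma), with -0.40 on the high-iron diet and -0.63 on the control diet, both past the threshold. A second Slc40a1 probe, 106940154, was at 240.1 to 282 in heart and 215 to 294 in skeletal muscle, close to the array median, and had a log2 difference of 0.13 that did not pass (adjusted p = 0.252). The probes of this gene therefore disagree in direction, with the called difference on the bright one.

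Macrophages are known for high ferroportin, so their markers were set beside Slc40a1. Of 11 macrophage genes, 8 were called higher in heart and none lower by their brightest probes. By probe, 8 of 18 were higher, against 7.61% of all probes. The summed signal of the 11 genes was 5805 to 6898 in the 6 hearts and 3760 to 4680 in the 6 muscles. The macrophage markers were higher in heart and Slc40a1 was lower, and the part of macrophages in the Slc40a1 signal was not tested. In neither diet comparison was a macrophage gene called (0 of 11).

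Cp, a ferroxidase secreted by liver that also occurs in a membrane-anchored form, had the smallest p of these genes between the tissues. Probe 101580398 was at 475, 638 and 564 in iron-fed hearts and at 549.8, 447 and 609.6 in control hearts. The values in muscle were 303, 339 and 286 in iron-fed and 303, 295 and 307 in control mice. The tissues did not overlap, and the muscle arrays sat just around the 75th percentile of all signals. The log2 difference was 0.83 (SE 0.0766, adjusted p = 3.03e-07, limma). Probe 2570484 of the same gene averaged 399.8 ± 24.5 in heart and 326 ± 16.3 in skeletal muscle (SD, n = 6 arrays each), again without overlap. Its log2 difference of 0.29 was smaller (adjusted p = 0.000387, limma), and on the control diet alone it was 0.22 and did not pass (adjusted p = 0.0971). A dim probe, 105270037, at 179 to 234 over both tissues, had 0.052. Of 8 liver genes, 0 were called higher in heart and 1, Apoa1, was called lower. Their summed signals were 2093 to 2251 in heart. In skeletal muscle, control replicate 1 was at 3259 and the other arrays were at 2187 to 2359. The part of liver RNA in the Cp signal was not tested.

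Heph, the membrane ferroxidase best known from the intestine, had 5 probes between the 13.8th and 56.7th percentiles. Their log2 differences between heart and skeletal muscle ran from -0.053 to 0.030, and none passed. The 95% intervals of these differences all lay between -0.16 and 0.15.

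Of the sensing genes, only Aco1 passed the test between the tissues. Its probe was dim, at the 64.5th percentile of all probes. The control muscles lay below the array median of 257, where a difference is harder to judge. Aco1, the gene of IRP1, was at 291, 316 and 292 in iron-fed hearts and at 297, 322 and 311 in control hearts. Muscles of iron-fed mice had 279, 259 and 303, and those of control mice had 248, 247 and 248. The control muscles lay within 1 unit of each other and below every other array, and an iron-fed muscle overlapped with the hearts. The log2 difference between the tissues was 0.21 (SE 0.0489, adjusted p = 0.00543, limma), made up of 0.10 on the high-iron diet (adjusted p = 0.655) and 0.32 on the control diet (adjusted p = 0.00616).

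Ireb2, the gene of IRP2, was at 488, 419.6 and 412 in iron-fed hearts and at 423, 454 and 411 in control hearts. Iron-fed muscles were at 427, 484 and 390.5, against 435, 441 and 414 in control muscles. The 4 groups overlapped throughout, and the log2 difference between the tissues was 0.0086 with a 95% interval of -0.12 to 0.13. The 4 probes of Fbxl5 had differences from -0.072 to 0.060, none past the threshold, and the interval of the brightest, 2970309, was -0.10 to 0.12.

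**Figure D2:**
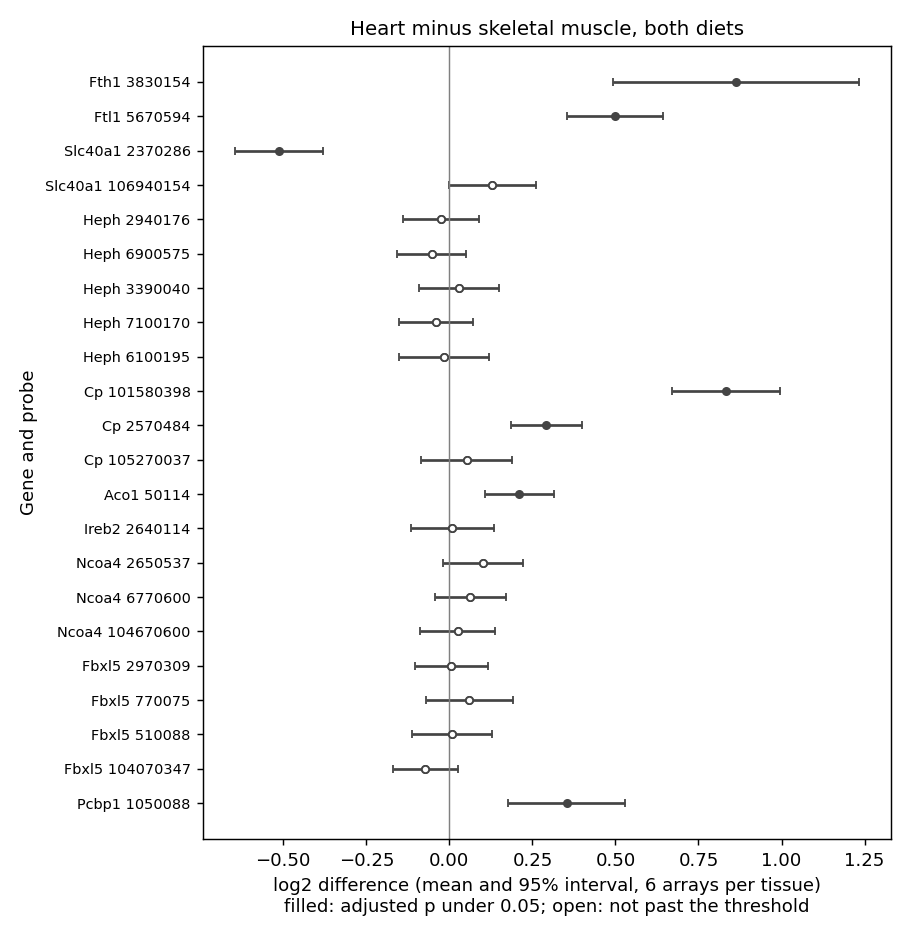
Log2 difference between heart and skeletal muscle (points) with its 95% interval (bars) for all 22 probes over both diets, 6 arrays per tissue. Filled points passed an adjusted p of 0.05. Fth1, Ftl1, 2 Cp probes, Aco1 and Pcbp1 lie to the right of 0, and only Slc40a1 probe 2370286 lies to the left with a filled point.

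The levels fell into the following order. For Ftl1 and both bright Cp probes the heart groups were the upper pair and the muscle groups the lower pair, and the ranges overlapped within a tissue but not between them. For Slc40a1 (probe 2370286) the muscle groups were the upper pair with overlapping ranges, followed by the iron-fed hearts and then the control hearts, without overlap. For Fth1 and Pcbp1 the control hearts came first, apart from the iron-fed hearts, whose range overlapped with that of the muscles.

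The diet comparison asked whether 6 weeks of dietary iron changed the mRNA of these genes in each tissue. In heart, none of the 22 probes passed an adjusted p of 0.05 in limma, as no probe of the whole array did (0%, smallest adjusted p 0.287). At an unadjusted p under 0.05 there were 3 of 22 member probes, those of Fth1, Slc40a1 and Pcbp1, against 2.56% of all probes. The high-iron and control hearts did not overlap for 2 member probes that were higher (3.83% of all probes), 1 each of Slc40a1 and Heph, and for 3 that were lower (3.96%), those of Fth1, Pcbp1 and the dim Cp probe. None reached a ratio of means of 1.4 (0.165% of all probes). The median log2 difference was -0.0067 over the 22 probes and 0.00064 over all probes.

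Fth1 had the lowest p of these genes in heart. The iron-fed hearts averaged 4705 ± 783 and the control hearts 6342 ± 655 (SD, n = 3 mice per diet), and all iron-fed values given above were below all control values. The log2 difference was -0.44 (SE 0.119, 95% interval -0.70 to -0.17, unadjusted p = 0.00431 and adjusted p = 1.00, limma), and -0.29 without the pair of arrays that stand apart. Pcbp1 averaged 799.7 ± 59.6 in iron-fed hearts and 1018 ± 212 in control hearts, with the spread of the controls set by replicate 2, an array that stands apart. Its log2 difference was -0.33 (SE 0.130, adjusted p = 1.00, limma), -0.17 without control replicate 2 and -0.14 without the pair of arrays.

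Slc40a1 ran the other way. It averaged 1018 ± 13.8 in iron-fed hearts and 855 ± 106 in control hearts, a log2 difference of 0.26 (SE 0.0949, 95% interval 0.048 to 0.47, adjusted p = 1.00, limma). Without the pair of arrays it was 0.32, and without control replicate 3, the lowest array, 0.15. Its second probe had 0.036. Ftl1 was at -0.13 with a 95% interval of -0.38 to 0.12 (-0.15 without the pair of arrays), and the bright probes of Cp and Ireb2 and the Aco1 probe lay between -0.047 and 0.079. The 12 probes of Heph, Ncoa4 and Fbxl5 lay between -0.063 and 0.085.

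In skeletal muscle, again none of the 22 probes passed (0.0997% of all probes did, 0.0217% higher and 0.078% lower). Aco1 alone had an unadjusted p under 0.05, against 5.12% of all probes, with 280.0 ± 21.9 in iron-fed muscles and 248 ± 0.447 in control muscles (SD, n = 3 mice per diet). It was also the only member probe whose groups did not overlap (higher, as for 5.24% of all probes, with no member among the 4.97% that were lower), and no member reached a ratio of 1.4 (0.117%). Its log2 difference was 0.17 (SE 0.0745, adjusted p = 0.938, limma). Ftl1, Slc40a1 (probe 2370286), Ireb2 and both bright Cp probes had differences between -0.066 and 0.032, and their 95% intervals lay between -0.22 and 0.20. Pcbp1 was at -0.095, and the 12 probes of Heph, Ncoa4 and Fbxl5 lay between -0.090 and 0.11.

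Fth1 in skeletal muscle gave no such bound. The iron-fed muscles averaged 3041 ± 1342 and the control muscles 3262 ± 1049.7, a log2 difference of -0.15 with a 95% interval from -0.60 to 0.31. The SD of its log2 values within the diet groups was 0.59, at the 99.97th percentile of all probes, whereas that of Ftl1 was 0.086 and the median of the brightest probes 0.082. Leaving out single muscle arrays moved the difference between -0.47 and 0.20.

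The response to diet was also compared between the tissues, as the difference in heart minus that in skeletal muscle. No member passed (0 of 22, and 0% of all probes), and 1, Aco1, had an unadjusted p under 0.05, against 3.35% of all probes. The value was -0.22 for Aco1 (adjusted p = 1.00, limma), 0.23 for Slc40a1, -0.24 for Pcbp1 and -0.29 for Fth1. A diet response that differs between heart and skeletal muscle was therefore not detected for any of these genes.

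**Figure D3:**
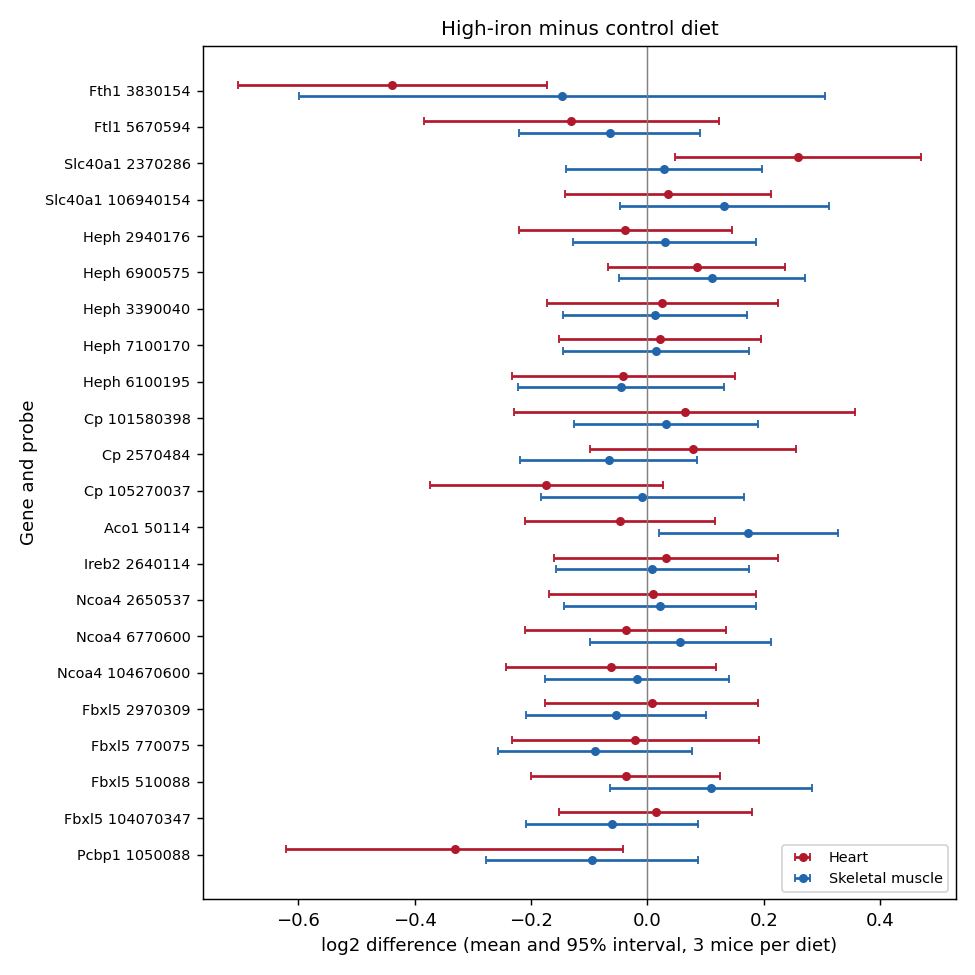
Log2 difference between the high-iron and the control diet (points) with its 95% interval (bars) for all 22 probes, in heart (red) and in skeletal muscle (blue), 3 mice per diet. In heart the intervals of Fth1, Pcbp1 and Slc40a1 exclude 0 before adjustment, in skeletal muscle that of Aco1 does, and none passed after adjustment.

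Other probes had deviations that followed those of Fth1, and the size of their own spread was not measured. Among 8357 bright probes with a gene name, 64 (0.766%, of 60 genes) had deviations from their group means that correlated with those of Fth1 at r of 0.9 or more over the 12 arrays, a threshold chosen after the values were seen. Of these, 62 had lower means in iron-fed than in control hearts, with a median log2 difference of -0.17, against -0.00039 over all bright named probes. Without both arrays that stand apart, 59 of the 64 were lower, with a median of -0.10. Probes that follow a member were not particular to Fth1. At the same threshold, 36 probes followed Cp, 29 followed Ireb2, 28 followed Ftl1, 6 followed Pcbp1 and 2 followed Slc40a1. The points of such correlations share their arrays, and no test was made of them.

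Probes of 1 gene did not all follow Fth1 alike. Adk, Acaa2, Fastk and Ptp4a2 each had more than 1 probe over the threshold. Of the 60 genes, 39 had other bright probes below the threshold, 53 in all. The deviations of these 53 had a median r of 0.13 with those of Fth1 (-0.56 to 0.90), against -0.027 over all bright named probes. The 53 are below 0.9 by selection, so a lower r than that of the followers was set in advance and is a description only. In heart, 31 of the 53 were lower on the high-iron diet, with a median log2 difference of -0.024. Ppp1ca and Egln1 are given as examples, chosen after their values were seen. Ppp1ca, the catalytic subunit of a protein phosphatase, is one of the genes most like Fth1. Its probe 3140181 had r = 0.97 with Fth1 over the 12 arrays and was at 1376, 1496 and 1259 in iron-fed hearts and 1434, 1779.5 and 1544 in control hearts, a log2 difference of -0.20 (-0.12 without both arrays that stand apart). It was at 956, 1146 and 667 in iron-fed muscles and 828, 1038 and 1084 in control muscles, and within each muscle group its lowest array was that of Fth1. Its other 3 bright probes had r of 0.51 to 0.55 with Fth1 and log2 differences of 0.081 to 0.17 in heart. These r values and the 0.97 are of the signals, which share the difference between the tissues. By deviations from group means, the measure of the threshold of 0.9, probe 3140181 had r = 0.95. The other 3 had r of -0.32 to -0.098 by that measure. The Ppp1ca probes thus differed in sign in heart, none of them past the threshold. Egln1, an oxygen-sensing prolyl hydroxylase, went the other way, with a probe over the threshold of 0.9. Its other bright probes had r of 0.86 and 0.90 with Fth1 by deviations, just below it. Their log2 differences in heart were -0.23 and -0.30. Fth1 has a single probe here, so the same comparison cannot be made for it.

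**Figure D4:**
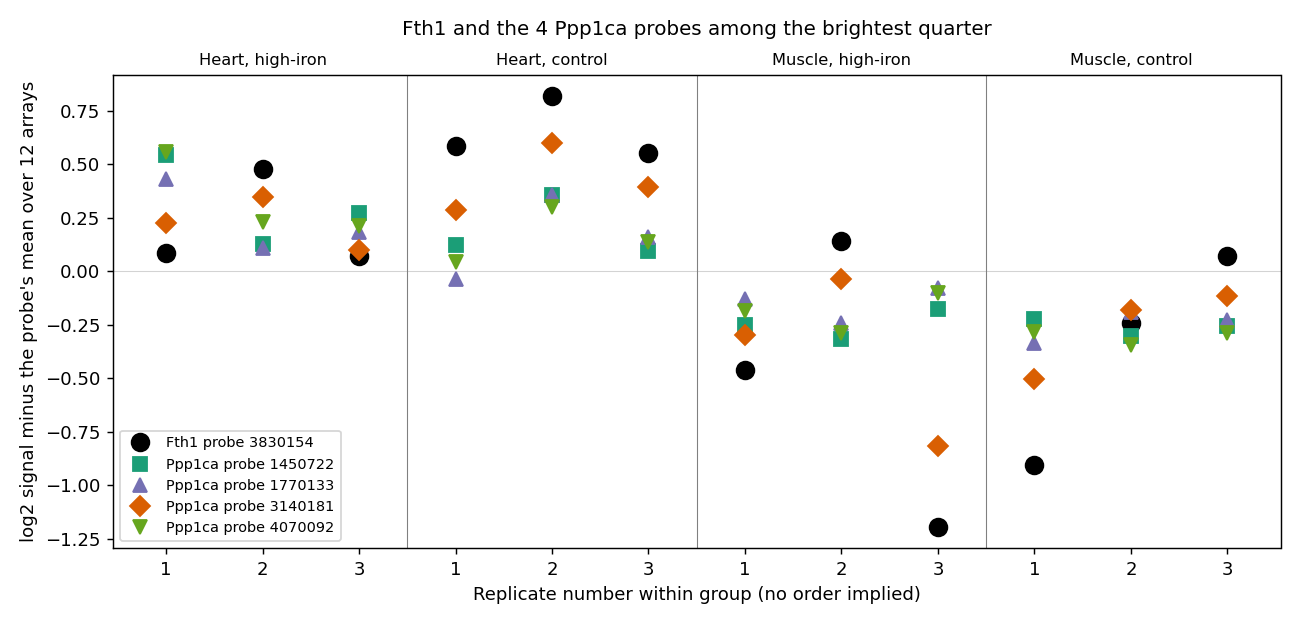
Log2 signal of Fth1 and of 4 bright Ppp1ca probes on each array, minus the mean of each probe over the 12 arrays. Ppp1ca probe 3140181 (diamonds) and Fth1 (black circles) are both lowest on high-iron muscle replicate 3 and, among control muscles, on replicate 1, while the other 3 probes stay close together in skeletal muscle.

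Within the set, the deviations of Pcbp1 from its group means had r = 0.73 with those of Fth1, and those of Ireb2 had r = 0.72 with those of Ftl1, over 12 arrays. These were the highest r among the members compared. Fth1 and Ftl1, which form the same protein shell, had r = 0.093. Over all bright named probes the median r was -0.027 with Fth1, 0.18 with Pcbp1, 0.30 with Ireb2 and 0.31 with Ftl1, so the values have unlike backgrounds. Over the signals themselves, the 3 named genes most like each member (Pearson's r over 12 arrays, probes above the median) were Akap1, Dctn3 and Ppp1ca for Fth1 (0.97 to 0.98), Dap, Apoe and Sfxn4 for Ftl1 (0.98 to 0.99), and Mtch1, Herpud1 and Egln1 for Pcbp1 (0.94 to 0.96). For Slc40a1 they were Abtb1, Twistnb and Taf5l (0.95 to 0.96), for Cp 4930402H24Rik, Atp2a2 and Pcp4l1 (all 0.99), for Aco1 Sptbn1, Glul and Mitf (0.90 to 0.92) and for Ireb2 Amz2, Pak2 and Kansl2 (0.88 to 0.92). The dim probes had lower values: Mms19, B3gat3 and Alg11 for Heph (0.81 to 0.86), Rnf169, Pkd2l1 and Ankrd27 for Ncoa4 (0.86 to 0.88), and Fbxo31, Olfr1254 and Zfp763 for Fbxl5 (0.83 to 0.85). The 12 points of each such value share the difference between the tissues.

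Among the partners of these genes there were again calls between the tissues and none for diet. The 13 partner genes included other ferritin and chaperone genes, ferritin receptors, Flvcr1 and Flvcr2, and subunits around FBXL5 and NCOA4. None was called for diet in either tissue. By their brightest probes, 2 were higher and 4 lower in heart than in skeletal muscle. Over all probes, 7.61% were called higher and 5.76% lower. Of those above the 75th percentile, 45.8% were called in either direction. Skp1 and Cul1, which form the ligase with FBXL5, were lower in heart, with log2 differences of -0.71 and -0.33, and so was Herc2, a ligase that targets NCOA4 (-0.49). Rbx1, the RING subunit of the FBXL5 ligase, was higher by its brightest probe (0.20) and lower by its other probe (-0.86), both past the threshold. Flvcr1, a heme exporter gene, was lower (-0.95, by probe 106940037, with 0.010 for its dim probe). Flvcr2 was higher (0.38, with 0.022 for its other probe, 50048, which did not pass). Probe 50048, which is dim, was at 294, 297 and 297 in iron-fed hearts and 251, 237 and 254 in control hearts. The diets did not overlap there, as for 3.83% of all probes in the higher direction. Its log2 difference for diet in heart, 0.26, did not pass after adjustment (unadjusted p = 0.00379, limma). Flvcr1 was at 693, 675 and 695 in iron-fed muscles and 471, 671 and 579.6 in control muscles. These did not overlap, as for 5.24% of all probes in the higher direction. Its log2 difference of 0.28 did not pass (adjusted p = 0.773, limma).

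Among 8 iron import genes, Tfrc, the transferrin receptor whose mRNA the IRPs stabilize, had the smallest p in both diet comparisons by each gene's brightest probe. It was at 1085, 565 and 548 in iron-fed hearts and 964, 869 and 1154 in control hearts, with heart high-iron replicate 1 among the controls (log2 difference -0.51, adjusted p = 1.00, limma). Without that array the difference was -0.83 (adjusted p = 0.347, limma), and without both heart arrays that stand apart, a setting chosen after the data were seen, it was -0.92 and passed (SE 0.0939, adjusted p = 0.000190, limma). Iron-fed muscles had 1447, 1464 and 1234 and control muscles 1883, 1636 and 2376 (log2 difference -0.50, adjusted p = 0.0638, limma). They did not overlap, as for 4.97% of all probes in the lower direction. With all arrays Tfrc did not pass in either tissue. Slc11a2 probe 3140603, not the brightest of its gene, had an unadjusted p of 0.0454 for diet in heart, against 0.0489 for Tfrc (limma). Between the tissues, Tfrc (-0.98) and Slc11a2, a ferrous iron transporter (-0.40), were called lower in heart by their brightest probes, as were 5.76% of all probes. The other Slc11a2 probes, at -0.18 and -0.054, did not pass. The other 6 import genes were not called.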

How the data were processed

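The authors amplified and biotin-labelled total RNA of each sample, hybridized it to Sentrix Mouse-6 BeadChips and read the probe intensity with BeadStudio. The deposited intensity of each sample was not yet normalized (array medians 182.9 to 337.2, replicate 1 being highest and replicate 3 lowest within every group). The series table, used as an alternative, has deposited intensity after the authors' own quantile normalization. Here the signals were quantile normalized over 12 arrays and taken to log2 in R 4.3.3. Diets within a tissue, tissues and the interaction were compared with limma 3.58.1 (two-sided, Benjamini-Hochberg over 46133 probes, threshold 0.05). Both tissues with a given diet and replicate number were taken as 1 mouse, a random block (consensus correlation 0.0717). Replicates are separate mice. No detection p-values were used, and precision is limited by how few arrays there are. The diet and tissue fits, without the mouse block, were tried on simulated data with independent noise and no arrays that stand apart. The mouse block and the interaction were not simulated.

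Probes were named from the platform annotation (29542 with 1 symbol, 11 with several, 16580 with none). The text names every member, up to 4 genes of smallest p per comparison from the other iron lists, and the 3 genes most like each member. Cul1, Rbx1 and the Ppp1ca probes were named after their values were seen. Members and lists were chosen with earlier results of these data known. Alternatives were another scaling, offset, background correction, filter, prior, fit, block and single arrays left out. Leaving out both heart arrays and array quality weights were chosen after seeing the data.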

Additional observations from a re-analysis of the deposited data

How the results depend on the processing

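No member was called for diet, in either tissue or for the interaction, under any of the alternatives run, including the replicate number as a block (0 in heart and 0 in skeletal muscle), no mouse block for the interaction (0), a ratio of means of at least 1.4 and each array left out in turn. The labels do not tie samples of the same number across the diets, so the numbers were not taken as pairs. The correlations of their deviations were -0.54 to 0.49 in heart and 0.022 to 0.099 in skeletal muscle. Those between heart and skeletal muscle taken as the same mouse were no higher than 0.0998 (from 0.026). The mouse block thus rests on a reading of the labels. Within a diet it cannot be told apart from the replicate number that both tissues share. In all 4 groups replicate 1 had the highest and replicate 3 the lowest array median before normalization, and a part of such a shared order in the results was tested only through the fits with the number as a block. Over all probes in skeletal muscle, 77 were called with the block and 46 without it, and 0 in heart either way. That skeletal muscle count was 0 when arrays were scaled to a common median and 0 with normexp background correction, 74 with an offset of 50, 2 in a single fit over 12 arrays and 27 without high-iron replicate 1. In heart, where 0 probes passed, 2 did with a trended, robust prior, 5 in the single fit, 1 without control replicate 1, 1 without control replicate 2 and 28 without both heart arrays. For the interaction, at 0, the trended prior gave 1, leaving out heart high-iron replicate 3 gave 1 and leaving out both heart arrays 8.

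Between the tissues, 7 member probes were called under every alternative except 3: 6 with a common median, without Pcbp1, 6 on the control diet alone, without Cp probe 2570484, and 4 on the high-iron diet alone, without Fth1, Aco1 and Pcbp1. Without the mouse block there were 7. No called member reversed. A common median moved the median of all probes by less than 0.1. Normexp widened most differences of dim probes (Aco1 in skeletal muscle 0.35), with no call gained. Probes near background limit what Heph, Ncoa4, Fbxl5 and Aco1 can show.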

Other observations

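Of 7 genes of the hepcidin axis, none was called for diet, and between the tissues 1 was higher, 1 lower and 5 were not called by their brightest probes (13.4% of all probes were called). Hjv, the BMP co-receptor hemojuvelin, was lower in heart than in skeletal muscle (log2 difference -1.16, adjusted p = 3.90e-09, limma), and Neo1, its binding partner neogenin, was higher (0.51, adjusted p = 5.85e-06, limma). Of 6 NRF2 target genes, which include genes of heme breakdown and glutathione synthesis, none was called for diet. Nqo1, a quinone reductase, was higher in heart (0.50) and Txnrd1, a thioredoxin reductase, lower (-0.37), both past the threshold, while Hmox1, heme oxygenase, was at 0.17 and did not pass (adjusted p = 0.134, limma). Erythroid genes were higher in heart (4 of 4 called, summed signals 50614 to 70375 in heart and 11401 to 21524 in skeletal muscle). By their brightest probes, 4 of 5 endothelial genes were higher and 3 of 6 fibroblast genes lower (3 of 12 fibroblast probes). Over all probes 7.61% were called higher and 5.76% lower, and above the 75th percentile 45.8% were called in either direction. The part of these cell types in the tissue differences of the iron genes was not tested.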
